A study of Mus musculus with 2 samples.

Results

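The genes described here are 9 of the 32285 genes counted in a single-cell RNA-seq data set of mouse testes at postnatal day 7 (PD7). They are *Kit*, *Kitl*, *Sohlh1*, *Sohlh2*, *Dmrt1*, *Dmrtb1*, *Lhx8*, *Uchl1* and *Cited1*, chosen by name as the KIT receptor, its ligand and a set of genes tied to spermatogonial differentiation. All 9 symbols occurred a single time in the gene lists of both libraries.

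KIT is a receptor tyrosine kinase that appears on spermatogonia when they leave the undifferentiated state, and its ligand KITL (stem cell factor) is made by Sertoli cells, which line the seminiferous tubule and nurse the germ cells. Spermatogonial stem cells respond to GDNF through the co-receptor GFRA1 and the kinase RET, whereas retinoic acid induces *Stra8* and drives cells towards differentiation and meiosis. SOHLH1 and SOHLH2 are basic helix-loop-helix transcription factors of germ cells that are needed for differentiation and are known to act on *Kit*.

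The study asked what loss of BRCA1, a DNA repair protein, does to germ cells while the pool of undifferentiated spermatogonia forms. There was 1 library from control testes and 1 library from *Brca1* vKO testes, both at PD7, so genotype and library cannot be told apart and no test between genotypes was possible. The *Brca1* vKO mice were *Brca1* f/- *Vasa-Cre*: they carried a floxed *Brca1* allele, a null *Brca1* allele in every cell, and a *Vasa-Cre* transgene that is active in germ cells from the fetal gonocyte stage, so that exons of the floxed allele are removed in germ cells while somatic cells keep the floxed copy. Each library came from 1 mouse, controls in the study were littermates whose alleles are not given in the sources used here, and more cells were loaded from *Brca1* vKO testes.

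The control library held 120568700 UMIs (unique molecular identifiers, each standing for a captured RNA molecule) in 5812 barcodes and the *Brca1* vKO library 165062097 UMIs in 9456 barcodes, of which 5077 and 8712 passed the filter on genes and mitochondrial UMIs. Germ cells were taken as barcodes with at least 10000 UMIs and at least 3 UMIs of *Ddx4* and *Dazl*, both germ cell RNA-binding protein genes, per 10000 UMIs. This gave 716 control and 228 *Brca1* vKO germ cells, while 372 and 52 barcodes met the marker minimum at lower depth. Near that minimum, 61 control and 12 *Brca1* vKO barcodes lay within a factor of 2 above it and 44 and 11 within a factor of 2 below it. Germ cells were called *Gfra1*/*Ret*-high when they held at least 3 UMIs of *Gfra1* and *Ret* and more of these than of *Stra8*, *Stra8*-high in the reverse case, and otherwise placed in a group called neither. The 3 groups held 349, 207 and 160 control cells and 199, 10 and 19 *Brca1* vKO cells, so that the *Brca1* vKO values outside the *Gfra1*/*Ret*-high group rest on few cells.

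Levels are given as UMIs per 1000000 UMIs of the summed cells (CPM) with exact 95% Poisson intervals, and ratios of levels with exact conditional intervals. All intervals cover counting error only, not the spread between animals or cells. Because reads were counted at transcript ends and not per length, no level is compared between genes. The summed level of *Ddx4* and *Dazl*, which the rule used, was 13.9 to 16.2 per 10000 UMIs over the control germ groups and 13.5 to 14.4 over those of *Brca1* vKO, and at most 0.213 in any somatic class. Somatic markers were present too: the summed level of 6 Sertoli markers ranged from 2.90 to 8.88 per 10000 over the control germ groups and from 1.56 to 4.83 over those of *Brca1* vKO, against 71.8 and 71.5 in Sertoli-like cells, and 100 control and 21 *Brca1* vKO germ cells reached the minimum of a somatic class. Results that turn on those cells are given with and without them. The libraries shared 21 barcodes, none of them among germ cells.

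*Brca1* itself stood at 71.1 CPM (67.2 to 75.2) in control and 42.8 CPM (38.5 to 47.5) in *Brca1* vKO *Gfra1*/*Ret*-high cells, a ratio of 0.602 (0.534 to 0.679). In *Stra8*-high cells it was 79.8 CPM in control and 79.4 CPM (54.7 to 112) in the 10 *Brca1* vKO cells. Counts of the whole gene include reads from exons outside the deleted stretch, so they check the label only in part.

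*Kit* (ENSMUSG00000005672, chr5:75574916-75656722, plus strand, GRCm38) separated the control germ groups. It stood at 8.02 CPM (6.73 to 9.48; 137 UMIs) in *Gfra1*/*Ret*-high cells, 134 CPM (127 to 141; 1469 UMIs) in *Stra8*-high cells and 61.5 CPM (55.3 to 68.3; 357 UMIs) in cells of neither group. None of these 3 intervals overlapped. The *Stra8*-high level was 16.7 times the *Gfra1*/*Ret*-high level (14.0 to 20.0). On the scale of log2(CPM + 10), the difference was 3.0, rank 2 of 13973 genes with at least 50 UMIs, and the gene above it was *Stra8* itself at 3.10, which defined the group. Leydig markers, whose cells are rich in *Kit*, summed to 0.568 per 10000 UMIs in *Stra8*-high and 0.0661 in *Gfra1*/*Ret*-high cells, and without cells over a somatic minimum the ratio was 16 (13.4 to 19.3).

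In *Brca1* vKO germ cells the order of the *Kit* levels was not the same. *Kit* was at 35.1 CPM (31.2 to 39.4; 290 UMIs) in *Gfra1*/*Ret*-high cells, 74.6 CPM (50.7 to 106; 31 UMIs) in *Stra8*-high cells and 13.4 CPM (4.34 to 31.2; 5 UMIs) in neither group. The *Gfra1*/*Ret*-high cells thus lay between the other two groups, where in control they were lowest. *Stra8*-high cells exceeded *Gfra1*/*Ret*-high cells by a ratio of 2.13 (1.42 to 3.09). Between the libraries, *Kit* in *Gfra1*/*Ret*-high cells was 4.38 times as high in *Brca1* vKO as in control (3.56 to 5.40), in *Stra8*-high cells 0.557 times (0.377 to 0.795) and in neither group 0.217 times (0.0700 to 0.511). Other values of these groups differed too. *Gfra1* was at 20.2 CPM in control and 86.7 CPM in *Brca1* vKO *Stra8*-high cells, and at 3.62 and 21.4 CPM in neither cells. Leydig markers were at 0.568 and 0.0482 per 10000 UMIs in *Stra8*-high cells, and the median depth of neither cells was 35444 and 16966 UMIs. Their part in the *Kit* ratios was not tested. Whether these ratios differ beyond the spread between animals was not tested, since each genotype had 1 library.

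**Figure D1:**
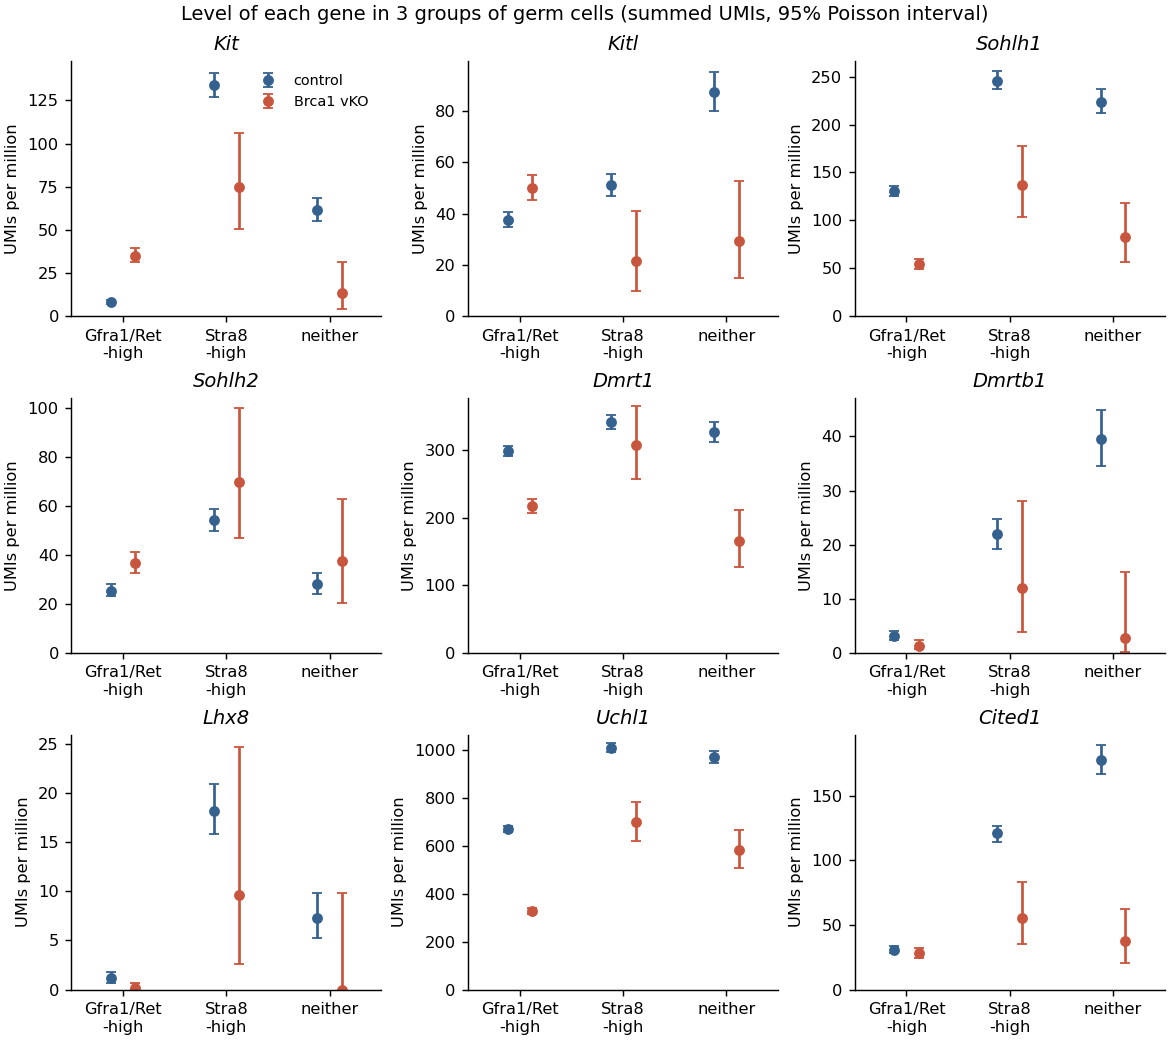
Level of each of the 9 genes (y axis, CPM, linear scale from 0) in *Gfra1*/*Ret*-high, *Stra8*-high and neither germ cells of the control library (blue) and the *Brca1* vKO library (red); points are summed levels and bars exact 95% Poisson intervals. *Kit* is at 8.02 CPM in *Gfra1*/*Ret*-high and 134 CPM in *Stra8*-high control cells, and at 35.1 and 74.6 CPM in those of *Brca1* vKO.

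The excess of *Kit* in *Brca1* vKO *Gfra1*/*Ret*-high cells was spread over many cells. In control, 264 of 349 cells had no *Kit* UMI, 58 had 1, 24 had 2 to 4 and 3 had 5 or more. In *Brca1* vKO, 89 of 199 had none, 47 had 1, 46 had 2 to 4 and 17 had 5 or more. Cells with 2 or more were thus the smaller part in both libraries, and the highest cell held 13 UMIs in control and 16 in *Brca1* vKO. The 10 cells with most *Kit* held 32.8% of its UMIs in control and 29.7% in *Brca1* vKO.

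Since the cells differed in depth (median 45778 UMIs in control and 38009 in *Brca1* vKO *Gfra1*/*Ret*-high cells), each was also thinned to 10000 UMIs. A *Kit* UMI then remained in 6.59% of control (23 of 349, 95% Clopper-Pearson interval 4.22 to 9.72%) and 25.1% of *Brca1* vKO *Gfra1*/*Ret*-high cells (50 of 199, 19.3 to 31.7%). The unthinned shares were 24.4% and 55.3%. In Sertoli-like cells, which should lack the receptor, the thinned share was 1.37% in control (26 of 1903, median 17465 UMIs before thinning) and 0.901% in *Brca1* vKO (34 of 3775, median 14769 UMIs), so the shares in *Gfra1*/*Ret*-high germ cells of both libraries lay above that background.

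The same count was made for all *Gfra1*-positive germ cells, those with at least 1 *Gfra1* UMI whatever their *Stra8*. At 10000 UMIs a *Kit* UMI was present in 12.7% of control (52 of 408, 9.67 to 16.4%) and 23.9% of *Brca1* vKO *Gfra1*-positive cells (51 of 213, 18.4 to 30.3%). Unthinned, the shares were 32.4% and 54.9%. The summed level differed less, at 25.8 CPM (23.6 to 28.1) in control and 35.9 CPM (32.1 to 40.2) in *Brca1* vKO. *Gfra1*-positive control cells included many with *Stra8*, which carried much of their *Kit*: 220 of the 408 held a *Stra8* UMI and 447 of the 520 *Kit* UMIs.

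Without those cells the libraries stood further apart. Among *Gfra1*-positive cells with no *Stra8* UMI, *Kit* was at 8.45 CPM (6.63 to 10.6) in 188 control cells and 29.0 CPM (24.7 to 33.8) in 137 *Brca1* vKO cells, and the thinned shares were 7.45% (4.13 to 12.2%) and 20.4% (14.0 to 28.2%). Among those with a *Stra8* UMI the thinned shares were 17.3% (12.5 to 22.9%) and 30.3% (20.2 to 41.9%), with intervals that overlapped. Of the 17 *Brca1* vKO *Gfra1*/*Ret*-high cells with 5 or more *Kit* UMIs, 10 had no *Stra8* UMI (58.8%, 32.9 to 81.6%), and of the 3 such control cells 1 had none. Among the 89 *Brca1* vKO cells of the group with no *Kit* UMI, 73.0% (62.6 to 81.9%) had no *Stra8* UMI, an interval that overlapped. These shares are from unthinned cells, with a median depth of 49841 UMIs in the 17 and 34427 UMIs in the 89 cells.

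A limit on mitochondrial UMIs changed this comparison in *Gfra1*-positive cells, but it also left fewer and deeper cells. Their median depth went from 46016 to 55223 UMIs in control and from 37378 to 45840 UMIs in *Brca1* vKO. Why the comparison changed was not tested. The median share of mitochondrial UMIs was 5.62% in control and 6.01% in *Brca1* vKO *Gfra1*/*Ret*-high cells. With only cells of at most 5% mitochondrial UMIs, the thinned share of *Gfra1*-positive cells with a *Kit* UMI was 14.0% in control (18 of 129, 8.48 to 21.2%) and 20.4% in *Brca1* vKO (10 of 49, 10.2 to 34.3%), and these intervals overlapped. The summed level in these cells was 27.9 CPM (24.2 to 32.1) in control and 29.1 CPM (22.5 to 37.0) in *Brca1* vKO, also with overlapping intervals. In *Gfra1*/*Ret*-high cells under the same limit the shares were 9.43% (4.62 to 16.7%, n = 106 cells) and 25.6% (13.5 to 41.2%, n = 43 cells), with intervals that overlapped. The ratio of levels in these cells was 3.31 (2.26 to 4.87). Leaving out cells over a somatic minimum gave a ratio of 4.43 (3.59 to 5.50), and a stricter grouping, with at least 10 UMIs of *Gfra1* and *Ret* and 0 of *Stra8*, gave 2.69 (1.97 to 3.70). Neutrophil markers summed to 2.18 per 10000 UMIs in *Brca1* vKO against 0.0164 in control *Gfra1*/*Ret*-high cells, but 1647 of their 1803 UMIs came from 1 cell, which held 1 *Kit* UMI. Red blood cell markers summed to 2.81 per 10000 UMIs in control and 0.398 in *Brca1* vKO *Gfra1*/*Ret*-high cells, and Scrublet marked 9.17% and 12.6% of these cells as doublets. The ratio was 4.34 with haemoglobin, mitochondrial and ribosomal protein genes left out of the total and 4.95 (3.98 to 6.17) without the marked cells.

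**Figure D2:**
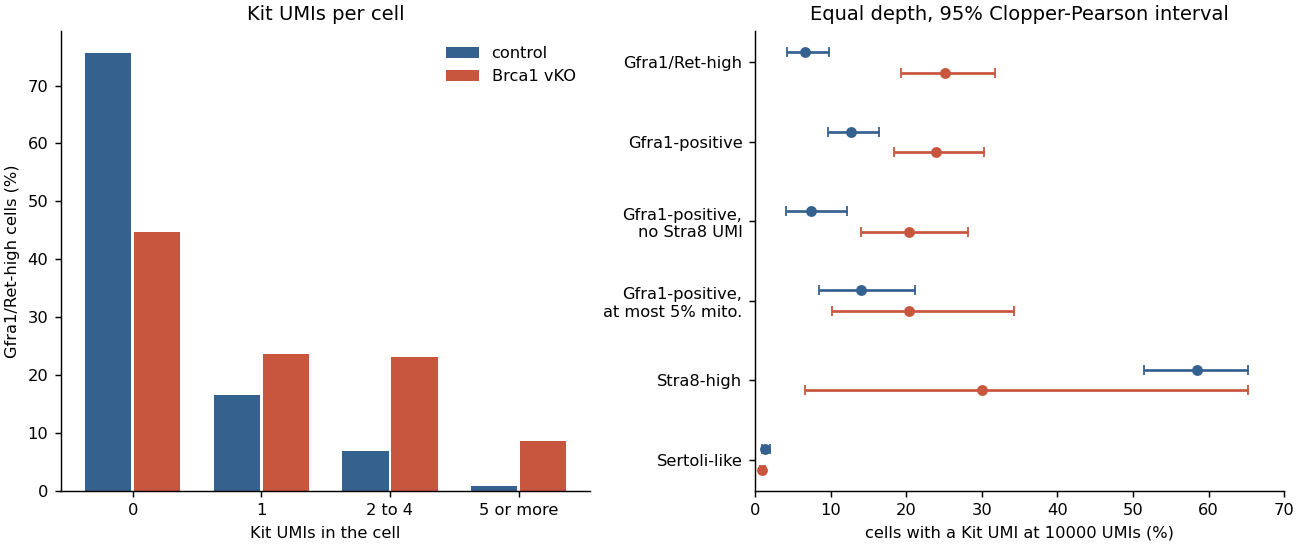
Left, share of *Gfra1*/*Ret*-high cells (y axis, percent, bars from 0) by number of *Kit* UMIs in the cell, for control (blue, 349 cells) and *Brca1* vKO (red, 199 cells); right, share of cells with a *Kit* UMI after thinning to 10000 UMIs (x axis, percent) with 95% Clopper-Pearson bars in 6 sets of cells. The *Brca1* vKO share is 25.1% against 6.59% in *Gfra1*/*Ret*-high cells, while the intervals overlap in *Gfra1*-positive cells with at most 5% mitochondrial UMIs and in *Stra8*-high cells.

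Over all control germ cells, those with a *Kit* UMI differed from those without in other genes of the set. At 10000 UMIs, *Dmrtb1* was detected in 28.0% of the 193 control germ cells with a *Kit* UMI (21.8 to 34.9%) and in 5.35% of the 523 without (3.59 to 7.64%). *Lhx8* was detected in 17.6% and 4.02%. *Cited1* was detected in 59.1% and 25.4%, and *Gfra1* in 14.0% and 54.7%. *Kit*-positive cells of the control were thus mostly cells with no *Gfra1* UMI at this depth. In *Brca1* vKO *Gfra1* was detected in 83.3% of both the 54 germ cells with a *Kit* UMI and the 174 without. *Cited1* was detected in 18.5% (9.25 to 31.4%) and 20.1% (14.4 to 26.8%), while *Dmrtb1* was seen in 1 and 2 cells and *Lhx8* in 1 and 0, too few to compare. Within *Gfra1*/*Ret*-high cells alone, *Sohlh1* was detected in 60.9% of control cells with and 61.0% without a *Kit* UMI, and in 36% and 35.6% of *Brca1* vKO cells.

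**Figure D3:**
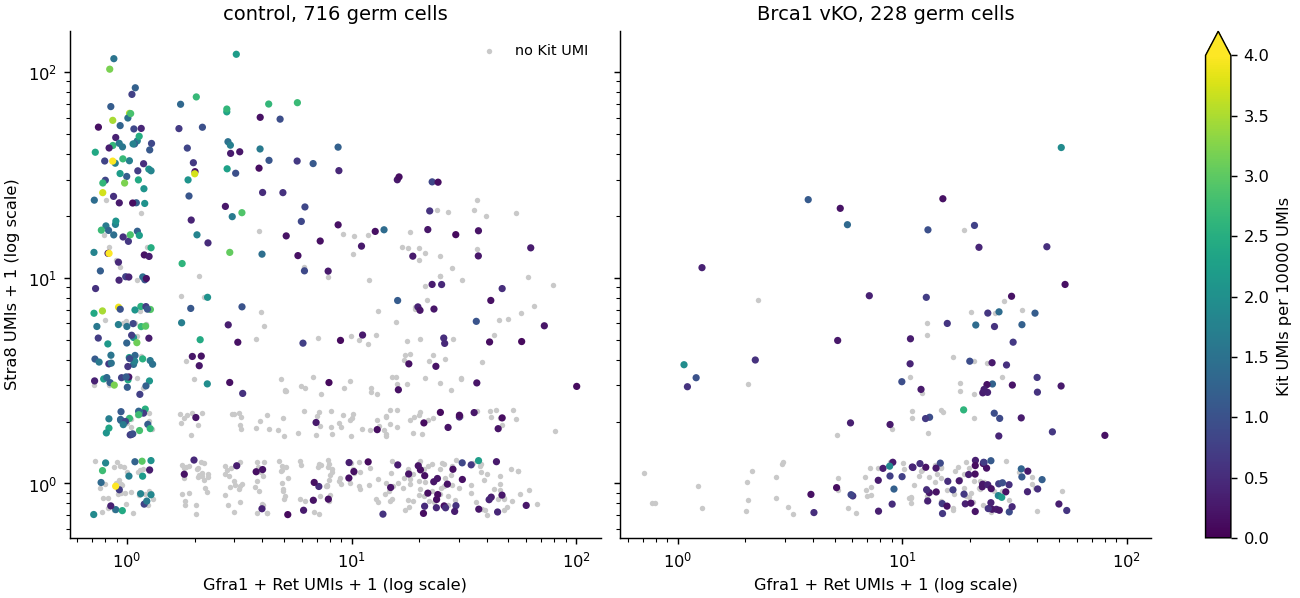
Each germ cell of the control (left) and *Brca1* vKO library (right) by its *Gfra1* and *Ret* UMIs plus 1 (x axis, log scale) and its *Stra8* UMIs plus 1 (y axis, log scale), moved by a small random amount so that points do not hide each other; colour gives *Kit* UMIs per 10000 UMIs (grey, no *Kit* UMI; the scale ends at 4). Coloured points gather at low *Gfra1* and *Ret* in control, and at high *Gfra1* and *Ret* in *Brca1* vKO, where only 10 cells are *Stra8*-high.

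Among the 7 somatic classes, *Kit* was highest in Leydig-like cells, the androgen-producing cells of the interstitium, where the receptor is known to be made. It stood at 266 CPM (232 to 303) in 37 control and 211 CPM (190 to 233) in 81 *Brca1* vKO Leydig-like cells, a ratio of 0.794 (0.670 to 0.942), while the median cell held 4 *Kit* UMIs in both. Endothelial-like cells followed with 44.3 CPM (31.0 to 61.3) in control and 83.2 CPM (62.5 to 109) in *Brca1* vKO, from 30 and 25 cells. *Kit* was at 6.19 CPM in control and 8.85 CPM in *Brca1* vKO stromal-like cells, at 1.63 and 1.48 CPM in Sertoli-like cells and at 2.67 and 3.10 CPM in myoid-like cells. These somatic classes were cut from summed marker levels, so each is a range of that level and not a sharp type: in the Leydig-like case 10 control and 38 *Brca1* vKO barcodes lay within a factor of 2 below the minimum.

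Placed in order, the control *Kit* levels ran from Leydig-like over *Stra8*-high, neither, endothelial-like, pericyte-like, *Gfra1*/*Ret*-high, stromal-like, myoid-like and macrophage-like to Sertoli-like cells. Neighbours in that order had overlapping intervals except Leydig-like with *Stra8*-high, *Stra8*-high with neither, and stromal-like with myoid-like cells. In *Brca1* vKO the *Gfra1*/*Ret*-high cells came directly after Leydig-like, endothelial-like and *Stra8*-high cells, and their interval overlapped that of the pericyte-like cells below but not that of the *Stra8*-high cells above.

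Mast cells, which depend on KIT, touched some of these values. In *Brca1* vKO, 12 cells reached 10 mast marker UMIs per 10000, and they held 94 *Kit* UMIs (553 CPM, 447 to 676); control had 1 such cell with 1 *Kit* UMI. Of the 12, 3 sat in the Leydig-like class, 3 in the myoid-like, 2 in the Sertoli-like and 1 in the stromal-like class. Without them *Kit* in *Brca1* vKO was at 207 CPM in Leydig-like, 1.61 CPM in myoid-like, 1.18 CPM in Sertoli-like and 8.41 CPM in stromal-like cells, so the myoid-like ratio to control moved from 1.16 to 0.605 (0.338 to 1.09).

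*Kitl* (ENSMUSG00000019966, chr10:100015630-100100416, plus strand), which encodes the KIT ligand, had its highest level in Sertoli-like cells of both libraries. The level was 819 CPM (812 to 827; 44685 UMIs, 2315 cells) in control and 831 CPM (825 to 836; 84829 UMIs, 4469 cells) in *Brca1* vKO, a ratio of 1.01 (1.0 to 1.03). This ratio changed side with the choice of total, falling to 0.996 when mitochondrial, ribosomal protein and haemoglobin genes were left out of it. At 10000 UMIs, 99.6% of control Sertoli-like cells had a *Kitl* UMI. Endothelial-like cells came next with 493 CPM (446 to 544) in control and 452 CPM (401 to 506) in *Brca1* vKO.

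In Leydig-like cells the summed *Kitl* level was 406 CPM (363 to 451) in control and 290 CPM (265 to 316) in *Brca1* vKO, a ratio of 0.714 (0.621 to 0.822). However, 1 of the 37 control cells held 79 of the 336 *Kitl* UMIs, the median cell held 4 in both libraries, and 86.5% of control and 86.4% of *Brca1* vKO cells had a *Kitl* UMI, so no direction is given. Stromal-like cells had 122 and 134 CPM (ratio 1.10, 1.03 to 1.17), and myoid-like cells 41.4 and 57.0 CPM (ratio 1.37, 1.22 to 1.55). Sertoli markers moved with both, from 2.17 per 10000 UMIs in control to 3.21 in *Brca1* vKO stromal-like cells and from 2.01 to 3.05 in myoid-like cells, and their part in these ratios was not tested. Macrophage-like cells were lowest at 12.4 and 12.3 CPM (7 and 9 UMIs), with Sertoli markers at 1.17 and 3.15 per 10000 UMIs, so these UMIs are not read as expression there. The Sertoli-like level was above all others beyond counting error.

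In control germ cells the *Kitl* level moved with Sertoli markers. It was 37.6 CPM in *Gfra1*/*Ret*-high, 51.1 CPM in *Stra8*-high and 87.4 CPM in neither cells of the control, and the Sertoli markers were at 2.90, 3.70 and 8.88 per 10000 in the same groups. In *Brca1* vKO it was 50.1, 21.7 and 29.4 CPM, with Sertoli markers at 4.06, 1.56 and 4.83, so that the order was not the same. Without cells over a somatic minimum the control levels were 16.6, 7.33 and 12.3 CPM. The control ratio of *Stra8*-high to *Gfra1*/*Ret*-high then turned from 1.36 (1.21 to 1.52) to 0.443 (0.333 to 0.581), and the *Brca1* vKO to control ratio in *Gfra1*/*Ret*-high cells from 1.33 (1.17 to 1.51) to 0.916 (0.725 to 1.15). No direction is therefore given for *Kitl* within germ cells.

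**Figure D4:**
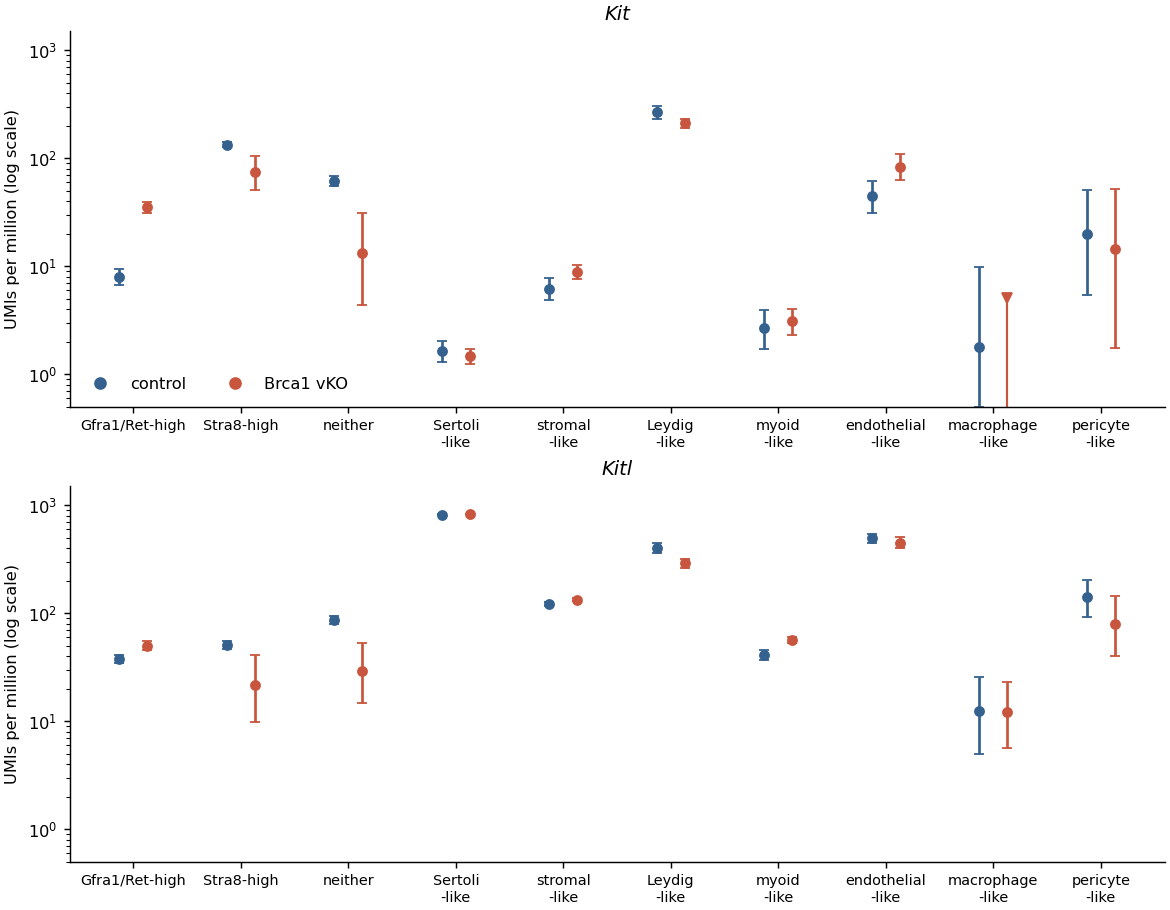
Levels of *Kit* (top) and *Kitl* (bottom) in CPM (y axis, log scale) in 3 germ groups and 7 somatic classes of control (blue) and *Brca1* vKO (red), with 95% Poisson bars cut at the lower edge of the axis; a downward triangle marks the upper limit of a class with no UMI. *Kit* peaks in Leydig-like cells at 266 and 211 CPM and *Kitl* in Sertoli-like cells at 819 and 831 CPM.

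*Sohlh1* (ENSMUSG00000059625, chr2:25842995-25847248, minus strand) and *Sohlh2* (ENSMUSG00000027794, chr3:55182028-55209957, plus strand) encode partner transcription factors that bind the E-box, whose letters are CANNTG. Promoter windows of 300 bases, from 250 bases before to 50 bases after the start, are shown for these 2 genes and for *Kit*, because the encoded factors belong to the class that reads this motif. The sequences are from RefSeq (GRCm38.p6), 5′ to 3′ on the strand of the gene, with capitals for CACGTG in *Sohlh1* and for CANNTG in the other two.
Sohlh1: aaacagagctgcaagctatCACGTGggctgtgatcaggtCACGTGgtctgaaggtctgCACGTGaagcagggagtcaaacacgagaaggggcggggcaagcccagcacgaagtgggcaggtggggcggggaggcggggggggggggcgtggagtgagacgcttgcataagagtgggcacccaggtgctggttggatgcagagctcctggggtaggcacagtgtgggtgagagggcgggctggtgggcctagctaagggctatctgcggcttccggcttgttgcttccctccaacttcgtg
Sohlh2: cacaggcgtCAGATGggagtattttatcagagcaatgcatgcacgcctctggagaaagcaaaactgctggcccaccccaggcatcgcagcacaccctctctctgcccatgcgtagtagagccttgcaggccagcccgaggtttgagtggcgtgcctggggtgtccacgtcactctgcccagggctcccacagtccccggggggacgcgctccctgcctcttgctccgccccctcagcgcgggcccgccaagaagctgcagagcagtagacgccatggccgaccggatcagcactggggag
Kit: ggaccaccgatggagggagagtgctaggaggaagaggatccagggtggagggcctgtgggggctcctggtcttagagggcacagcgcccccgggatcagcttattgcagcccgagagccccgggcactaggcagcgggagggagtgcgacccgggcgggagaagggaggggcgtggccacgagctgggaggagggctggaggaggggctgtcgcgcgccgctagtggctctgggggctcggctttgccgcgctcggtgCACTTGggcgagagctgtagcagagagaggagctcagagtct

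The *Sohlh1* window (chr2:25847199-25847498, minus strand) held CACGTG 3 times, starting 231, 211 and 192 bases before the start, and CAGGTG 2 times, starting 134 and 70 bases before it. CANNTG and CACGTG each read the same on both strands, and every CACGTG is also a CANNTG. Of 32851 promoter windows of this length, 72.3% held CANNTG and 7.15% held CACGTG, but 2.10% held CANNTG at least 5 times and 0.0883% (29 windows) held CACGTG at least 3 times. The *Sohlh2* window (chr3:55181794-55182093, plus strand) held CANNTG 1 time, as CAGATG starting 241 bases before the start. The *Kit* window (chr5:75574737-75575036, plus strand, the one of 2 listed for the gene that is nearest its annotated start) held it 1 time, as CACTTG starting at base 9 after the start. Among the other members, *Dmrtb1* had 3 matches to CANNTG, *Kitl* and *Cited1* 1 each, and *Lhx8* and *Uchl1* none. A match is a description of letters and not a bound site.

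In *Gfra1*/*Ret*-high cells this pair stood on opposite sides of the control level in *Brca1* vKO. *Sohlh1* was at 131 CPM (125 to 136) in *Gfra1*/*Ret*-high, 246 CPM (237 to 256) in *Stra8*-high and 224 CPM (212 to 237) in neither cells of the control, and at 54.0 CPM (49.1 to 59.2), 137 CPM (104 to 178) and 82.8 CPM (56.3 to 118) in *Brca1* vKO. The *Brca1* vKO level was below the control level in every germ group, by ratios of 0.413 (0.372 to 0.457), 0.558 (0.421 to 0.725) and 0.369 (0.25 to 0.527). Within each library, the *Stra8*-high level was above the *Gfra1*/*Ret*-high level, 1.88 times (1.78 to 1.99) in control and 2.54 times (1.89 to 3.36) in *Brca1* vKO. In Sertoli-like cells *Sohlh1* was at 1.49 CPM in control and 0.127 CPM in *Brca1* vKO, and *Dazl* at 7.0 and 2.30 CPM in the same cells.

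*Sohlh2* was at 25.4 CPM (23.1 to 27.9), 54.0 CPM (49.7 to 58.5) and 27.9 CPM (23.8 to 32.6) in *Gfra1*/*Ret*-high, *Stra8*-high and neither cells of the control. In *Brca1* vKO it was at 36.7 CPM (32.7 to 41.0), 69.8 CPM (46.8 to 100) and 37.4 CPM (20.4 to 62.7). *Stra8*-high cells again had the highest level, 2.12 times the *Gfra1*/*Ret*-high level in control (1.87 to 2.41; 3.40 under the stricter grouping) and 1.90 times in *Brca1* vKO (1.25 to 2.79). The *Brca1* vKO to control ratio was 1.44 (1.24 to 1.68) in *Gfra1*/*Ret*-high cells. It was 1.19 in those with at most 5% mitochondrial UMIs (106 control and 43 *Brca1* vKO cells), a value given without an interval. Without that limit, the intervals of the ratio spanned 1 in *Stra8*-high (0.859 to 1.88) and neither cells (0.716 to 2.31). *Sohlh2* was near absent from somatic classes, at 0.605 CPM in control and 0.451 CPM in *Brca1* vKO Sertoli-like cells.

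*Dmrt1* (ENSMUSG00000024837, chr19:25505618-25604329, plus strand) encodes a DM-domain factor that restrains meiotic entry in spermatogonia and maintains Sertoli cell fate. It varied little over the control germ groups, with 299 CPM (291 to 307) in *Gfra1*/*Ret*-high, 342 CPM (331 to 353) in *Stra8*-high and 327 CPM (313 to 342) in neither cells. The ratio of *Stra8*-high to *Gfra1*/*Ret*-high was 1.14 (1.09 to 1.19). In *Brca1* vKO the levels were 217 CPM (207 to 228), 308 CPM (257 to 366) and 166 CPM (127 to 212). The *Brca1* vKO level was lower in *Gfra1*/*Ret*-high cells (ratio 0.726, 0.688 to 0.766) and in neither cells (0.506, 0.387 to 0.652), and the interval spanned 1 in *Stra8*-high cells (0.751 to 1.08). With at most 5% mitochondrial UMIs the *Gfra1*/*Ret*-high ratio was 0.932 (0.844 to 1.03). In Sertoli-like cells *Dmrt1* was at 141 CPM in control and 139 CPM in *Brca1* vKO (ratio 0.981, 0.954 to 1.01).

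*Dmrtb1* (ENSMUSG00000028610, chr4:107676290-107684230, minus strand), whose DM-domain product acts at the switch from mitosis to meiosis, had its highest control level in neither cells, and *Cited1* did so among the germ groups. It was at 3.16 CPM (54 UMIs), 21.9 CPM (240 UMIs) and 39.5 CPM (229 UMIs) in *Gfra1*/*Ret*-high, *Stra8*-high and neither cells of the control. In *Brca1* vKO only 11, 5 and 1 UMIs were counted in these groups. The control ratio to *Gfra1*/*Ret*-high cells was 6.92 (5.13 to 9.48) in *Stra8*-high and 12.5 (9.25 to 17.1) in neither cells, the former falling to 4.08 (2.40 to 7.20) under the stricter grouping. The *Brca1* vKO to control ratio was 0.421 (0.199 to 0.815) in *Gfra1*/*Ret*-high and 0.0677 (0.00171 to 0.381) in neither cells, both below 1 beyond counting error, and 0.550 (0.177 to 1.30) in *Stra8*-high cells. With at most 5% mitochondrial UMIs the *Gfra1*/*Ret*-high ratio was 0.259, with an interval that spanned 1 (0.0294 to 1.07).

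*Lhx8* (ENSMUSG00000096225, chr3:154306294-154330659, minus strand), a LIM-homeobox gene best known for its role in oocytes, had its highest control level in *Stra8*-high cells. It had 20 UMIs (1.17 CPM) in *Gfra1*/*Ret*-high, 200 UMIs (18.2 CPM) in *Stra8*-high and 42 UMIs (7.24 CPM) in neither cells, and the *Stra8*-high level was 15.6 times the *Gfra1*/*Ret*-high level (9.82 to 26), or 35.0 times (13.2 to 131) under the stricter grouping. *Brca1* vKO germ cells held 5 *Lhx8* UMIs in all, 1 of them in the *Gfra1*/*Ret*-high, 4 in the *Stra8*-high and 0 in the neither group, where the upper limit is 9.85 CPM. Its ratio to control in *Gfra1*/*Ret*-high cells was 0.103 (0.00249 to 0.646), and under the stricter grouping 0.318 with an interval that spanned 1 (0.00646 to 3.21).

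*Uchl1* (ENSMUSG00000029223, chr5:66676091-66687234, plus strand) encodes a ubiquitin hydrolase that is used as a marker of spermatogonia. It overlaps *Uchl1os* on the opposite strand, which was counted separately. The level was 670 CPM (657 to 682), 1011 CPM (993 to 1030.5) and 973 CPM (947 to 998) in *Gfra1*/*Ret*-high, *Stra8*-high and neither cells of the control, and 327 CPM (314 to 339), 701 CPM (622 to 786) and 585 CPM (510 to 668) in *Brca1* vKO. All 3 *Brca1* vKO levels were lower, with ratios of 0.488 (0.468 to 0.509), 0.693 (0.614 to 0.778) and 0.602 (0.523 to 0.689). Among somatic classes it was at 50.3 and 40.7 CPM in control and *Brca1* vKO Sertoli-like cells, 8.93 and 3.59 CPM in stromal-like cells and 49.2 and 50.9 CPM in endothelial-like cells. The summed *Ddx4* and *Dazl* level was also lower in *Brca1* vKO in the first pair of classes, at 0.0924 and 0.0313 per 10000 UMIs in Sertoli-like and 0.0705 and 0.0310 in stromal-like cells, and its part in the *Uchl1* values was not tested.

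*Cited1* (ENSMUSG00000051159, chrX:102247381-102252181, minus strand) encodes a transcriptional co-regulator that binds CBP and p300. It was at 31.0 CPM (28.4 to 33.8), 121 CPM (114 to 127) and 178 CPM (167 to 189) in *Gfra1*/*Ret*-high, *Stra8*-high and neither cells of the control, and at 671 CPM in Sertoli-like cells. Because Sertoli-like cells carry so much of it, the values without cells over a somatic minimum are given as well: 15.6, 97.0 and 119 CPM. The control ratio of *Stra8*-high to *Gfra1*/*Ret*-high was 3.89 (3.51 to 4.31) with and 6.23 (5.39 to 7.22) without those cells. In *Brca1* vKO, *Cited1* was at 28.2 CPM (24.7 to 32.1), 55.4 CPM (35.1 to 83.1) and 37.4 CPM (20.4 to 62.7), and without those cells at 13.0, 55.4 and 35.2 CPM. With all cells its ratio to control was 0.909 (0.776 to 1.06) in *Gfra1*/*Ret*-high, 0.459 (0.290 to 0.692) in *Stra8*-high and 0.211 (0.115 to 0.355) in neither cells. Without cells over a somatic minimum these ratios were 0.833 (0.649 to 1.06), 0.571 (0.360 to 0.862) and 0.296 (0.147 to 0.534), on the same side of 1. In Sertoli-like cells the ratio was 0.943 (0.931 to 0.955).

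Set against all genes, a difference of at least 1 on the scale of log2(CPM + 10) was counted as past the fold, among genes with at least 50 UMIs. The members, and the lists of other genes below, were chosen with earlier results of these data known. Their counts beside the share of all genes are therefore a description and not a test. Between *Stra8*-high and *Gfra1*/*Ret*-high control cells, 4 of the 9 members were past it in the higher direction (*Kit*, *Dmrtb1*, *Lhx8* and *Cited1*), where 0.716% of 13973 genes were. *Lhx8* reached 50 UMIs only through the *Stra8*-high cells, where it is high, so its place in this count is no support; the other 3 had over 50 UMIs in *Gfra1*/*Ret*-high cells alone. No member was past it in the lower direction, where 1.23% of genes were. The median of the members was 0.86, against 0.04 for all genes. In *Brca1* vKO, *Sohlh1* and *Uchl1* were past it among 7 members with enough UMIs (0.929% of 10769 genes), none was past it in the lower direction (3.37%), and *Dmrtb1* and *Lhx8* had too few UMIs. *Kit* was at 0.91 there.

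Between the libraries in *Gfra1*/*Ret*-high cells, *Kit* was the only member of 8 with enough UMIs past the fold in the higher direction, at 1.32 (0.596% of 13592 genes were). *Sohlh1* at -1.14 and *Uchl1* at -1.01 were past it in the lower direction (0.412% of genes). The median of the members was -0.16, against -0.01 for all genes. In *Stra8*-high cells none of the 9 was past it in either direction, where 3.18% of 11689 genes were, and in Sertoli-like cells none of 7 (0.110% of 15492 genes). The members past the fold were the same without cells over a somatic minimum, both between the control germ groups (0.777% of genes higher and 1.58% lower) and between the libraries in *Gfra1*/*Ret*-high cells (0.745% higher and 0.576% lower). Other alternatives did not keep both lower members past it between the libraries. *Sohlh1* had a ratio of 0.533 with at most 5% mitochondrial UMIs and *Uchl1* of 0.536 under the stricter grouping, both short of the fold. The ratio of *Kit* fell to 2.69 under the stricter grouping. Whether *Kit* was still past the fold there, on the scale with 10 CPM added, is not given.

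**Figure D5:**
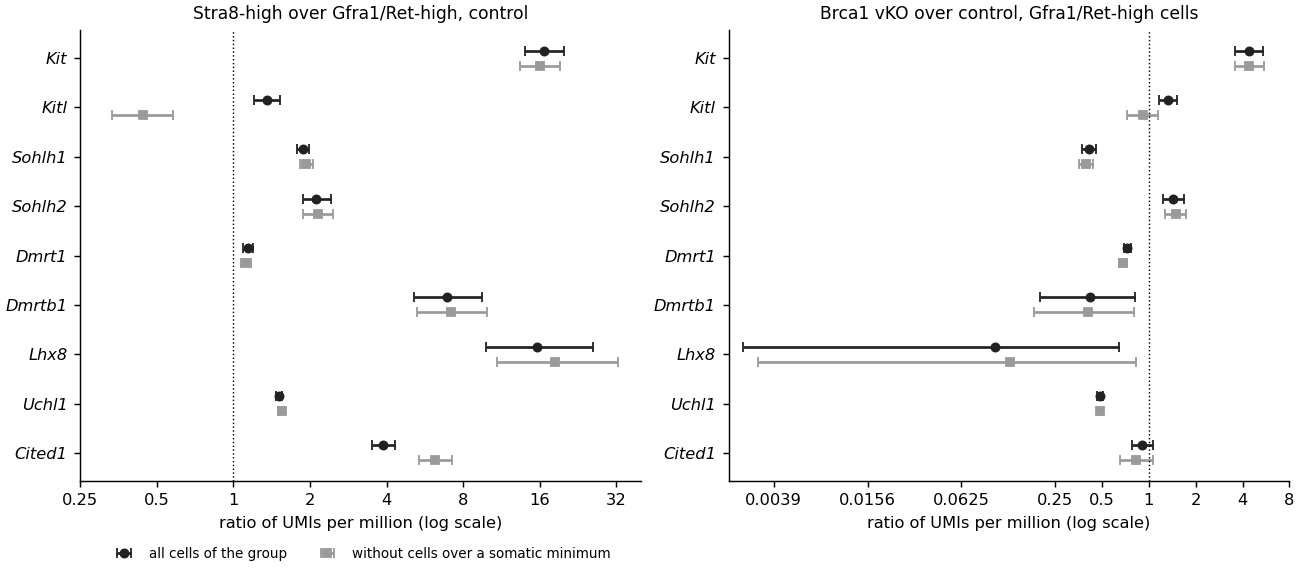
Ratio of levels (x axis, log scale, dotted line at 1) for the 9 genes, *Stra8*-high over *Gfra1*/*Ret*-high cells in control (left) and *Brca1* vKO over control in *Gfra1*/*Ret*-high cells (right); black circles use all cells of the group, grey squares leave out cells over a somatic minimum, and bars are exact 95% intervals for counting error. *Kitl* is the member that changes side between black and grey, while *Kit* stays at 16.7 and 16 on the left and at 4.38 and 4.43 on the right.

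Of 27 listed genes that transmit the KIT signal inside the cell, 25 had enough UMIs in the control comparison of *Stra8*-high with *Gfra1*/*Ret*-high cells. None was past the fold in the higher direction, where 0.716% of all genes were. In the lower direction, where 1.23% of all genes were past it, 2 of the 25 were. They were the SRC-family kinase gene *Fyn* (ratio 0.338, 0.316 to 0.361) and the PI3-kinase subunit gene *Pik3ca* (0.374, 0.339 to 0.413). The highest ratios were those of the kinase gene *Akt1* at 2.51 (2.16 to 2.92) and of *Socs1*, an inhibitor of cytokine signalling, at 1.97 (1.72 to 2.26), neither past the fold. Between the libraries in *Gfra1*/*Ret*-high cells, 0 of 26 were past it in either direction, where 0.596% of all genes were higher and 0.412% lower. Leaving out cells over a somatic minimum put *Pik3r1* past it in the lower direction, where 0.576% of all genes were.

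Other differentiation and premeiotic genes numbered 13, all with enough UMIs in control. In *Stra8*-high cells 3 were past the fold in the higher direction, where 0.716% of all genes were. They were *Dnmt3b*, which encodes a DNA methyltransferase, *Esx1* (ratio 7.92, 5.74 to 11.2) and *Crabp1*, a retinoic acid binding protein gene (4.23, 3.96 to 4.52). *Esx1* too reached 50 UMIs only through the *Stra8*-high cells (45 and 229 UMIs). The lowest were *Ccnd2*, a cyclin gene, at 0.511 (0.481 to 0.542) and *Sycp1*, a synaptonemal complex gene, at 1.09 (1.06 to 1.13). In *Brca1* vKO against control *Gfra1*/*Ret*-high cells, *Ccnd2* was higher (2.31, 2.21 to 2.40). *Crabp1* was lower (0.423, 0.368 to 0.486), and both were past the fold, where 0.596% of all genes were higher and 0.412% lower. *Kit* and *Crabp1*, which both marked control *Stra8*-high cells, thus differed in opposite directions.

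Of 21 genes of undifferentiated spermatogonia, 6 were past the fold in the lower direction in control *Stra8*-high cells (*Zbtb16*, *Etv5*, *Id4*, *Nanos3*, *Lhx1* and *Cdh1*). *Lhx1* had a ratio of 0.0210 (0.00840 to 0.0436) and *Id4* of 0.111 (0.0881 to 0.137). *Sox3*, a gene of progenitor spermatogonia, was highest at 2.20 (1.96 to 2.48), followed by *Taf4b* at 1.22 (1.14 to 1.31). In *Brca1* vKO *Gfra1*/*Ret*-high cells *Lhx1* and *Bcl6b* were past the fold in the higher and *Sox3* and *Upp1* in the lower direction, with *Lhx1* at 4.68 (4.21 to 5.20) and *Sox3* at 0.287 (0.219 to 0.371) times control. Of the 21 genes these 4 were past it, where 0.596% of all genes were higher and 0.412% lower. The median of the whole list was -0.44, against -0.01 for all genes.

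Only 3 of 7 oocyte genes known to lie downstream of SOHLH1, SOHLH2 or LHX8 reached 50 UMIs. None was past the fold in control, where 0.716% of all genes were higher and 1.23% lower. *Nobox* reached 50 UMIs only through the *Stra8*-high cells, where it is high. *Nobox* had a ratio of 10.4 (5.12 to 23.8) from 9 and 60 UMIs, *Figla* of 1.51 (1.32 to 1.73) and *Zp3* of 1.36 (0.831 to 2.21). *Figla* was lower in *Brca1* vKO *Gfra1*/*Ret*-high cells (0.525, 0.422 to 0.649). Among relatives of the members, 9 of 12 had enough UMIs. *Lhx1* was the gene past the fold, in the lower direction, where 1.23% of all genes were. *Dmrt2* had a ratio of 0.146 (0.0798 to 0.248), *Uchl3* of 1.51 (1.42 to 1.62) and *Dmrtc2* of 0.952 (0.685 to 1.32). *Lhx1* and *Dmrt2* (160 UMIs against 15) reached 50 UMIs only through the *Gfra1*/*Ret*-high cells, where they are high.

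The pattern of each member over the 10 groups and classes of both libraries (20 points) was compared with that of 18962 genes by Pearson's r of log2(CPM + 10), as a description, since the points share libraries and depth. *Kit* was most like *Igfbp2* (r = 0.936), *Slc12a8* (0.878) and *Bmp6* (0.824), and *Kitl* most like *Npr1* (0.927), *C430049B03Rik* (0.924) and *Nectin2* (0.915). *Sohlh1* came nearest to *Crybg2* (0.996), *Gm15107* (0.996) and *Tex16* (0.994). *Sohlh2* came nearest to *Hormad1* (0.994), *Xlr4c* (0.991) and *Luzp4* (0.988). Of the 20 points, 6 are germ groups and 14 are somatic classes. For *Dmrt1* the nearest were *Zmym1* (0.982), *Map3k4* (0.981) and *Atp8b5* (0.978), and for *Dmrtb1* they were *Gm35041* (0.970), *Gm36037* (0.965) and *Dpy19l2* (0.962). *Lhx8* was nearest to *Gm11240* (0.971), *Grm5* (0.959) and *Plpp4* (0.951). *Uchl1* paired with *Ube2k* (0.972), *Cecr2* (0.968) and *Cenpj* (0.965), and *Cited1* with *Vsig1* (0.949), *Sin3b* (0.948) and *Rnd2* (0.944). Within the set, r was 0.957 for *Sohlh1* and *Sohlh2*, 0.939 for *Sohlh1* and *Uchl1*, and 0.292 for *Kit* and *Sohlh1*.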

How the data were processed

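The authors digested PD7 testes with collagenase IV and TrypLE, made droplet libraries and, per the labels, used Cell Ranger 6.0.2 with mm10. The deposited values are raw counts of UMIs per gene and barcode, not normalized and not yet filtered. A cell needed 750 genes or more and no more than 10% mitochondrial UMIs, the filter of the study's methods. The Seurat 4.3.0.1 and R 4.2.3 steps named in the submitters' processing notes were not repeated, and no cell annotation by the authors was used.

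Germ groups followed the stated marker rule. Somatic cells were called Sertoli-like, stromal-like, Leydig-like, myoid-like, endothelial-like, macrophage-like or pericyte-like when the summed markers reached 15, 15, 10, 15, 6, 4 or 6 UMIs per 10000, minimums set after seeing their distributions, and no class had a marker of another among its 10 leading genes. Cells over another class's minimum, or over 10 for neutrophil markers, were left out of a class, with 1 exception. Myoid-like cells over the stromal minimum were kept. The median stromal marker level of myoid-like cells was 21.4 per 10000 UMIs in control and 21.0 in *Brca1* vKO. Scrublet in scanpy 1.11.5 marked 161 of 5077 control cells (3.17%) and 249 of 8712 *Brca1* vKO cells (2.86%), and these were kept except in an alternative. UMIs were summed per library and group, and intervals came from scipy 1.17.1. Random thinning drew 10000 UMIs from each cell of at least that depth. Counts past the fold used a pseudocount of 10 CPM, and the code was tested on simulated data.

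Each genotype had 1 library, so no test, p-value or SE was possible. The 9 members, the markers and the 5 lists of other genes were chosen with earlier results of these data known. Named genes were the members, the grouping genes, *Brca1*, the 2 highest and 2 lowest of each list in the control comparison of germ groups, and the 3 genes most like each member. Genes named in addition as past the fold, *Dnmt3b*, *Zbtb16*, *Etv5*, *Nanos3*, *Cdh1*, *Bcl6b*, *Upp1* and *Pik3r1*, and *Uchl1os* as an overlapping gene, were added after their values were seen. Coordinates are from a GENCODE annotation of GRCm38, which held 32235 of the 32285 gene IDs. Promoters matched 8 of 9 members.
Alternatives varied the cell filters, germ minimum, grouping rule, thinning, doublets, total and pseudocount.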

Additional observations from a re-analysis of the deposited data

Results flagged for a closer look

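*Kit* differed in direction between germ groups. In *Gfra1*/*Ret*-high cells the *Brca1* vKO level was 4.38 times control and in *Stra8*-high cells 0.557 times. The *Brca1* vKO value in *Stra8*-high cells rests on 10 cells and 31 UMIs, and the difference between the groups was not tested.

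*Kitl* showed the same split, at 1.33 times control in *Gfra1*/*Ret*-high and 0.424 times in *Stra8*-high cells, and this was not tested either. Without cells over a somatic minimum the ratios were 0.916 and 2.95, the second from 9 UMIs in *Brca1* vKO.

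*Kit* stood at 553 CPM in the 12 *Brca1* vKO cells over the mast marker minimum, which belong to no comparison of the report as a class. The control library had 1 such cell.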

How the results depend on the processing

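No paired analysis was possible because each genotype had 1 library, and for the same reason no replicate could be left out. Alternatives changed 1 choice at a time, except a stricter grouping that raised the marker minimum and barred the other marker together. The *Brca1* vKO to control ratio in *Gfra1*/*Ret*-high cells stayed above 1 in all 16 alternatives for *Kit* (2.69 to 4.95) and *Sohlh2* (1.19 to 1.95) and below 1 for *Sohlh1* (0.380 to 0.533), *Uchl1* (0.470 to 0.536), *Dmrt1* (0.686 to 0.932) and *Dmrtb1* (0.259 to 0.473). For *Kit* it was 3.31 with at most 5% mitochondrial UMIs and 2.69 when groups needed 10 UMIs of their marker and 0 of the other, a grouping added after seeing the data. The control ratio of *Stra8*-high to *Gfra1*/*Ret*-high cells for *Kit* was 12.7 with at most 5% mitochondrial UMIs and at most 17.7 elsewhere. *Cited1* crossed 1 in that stricter grouping, at 1.26 (1.02 to 1.57).

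*Kitl* in control Sertoli-like cells was 849 CPM with at most 5% mitochondrial UMIs, 737 CPM with cells weighted equally and 991 CPM with mitochondrial, ribosomal protein and haemoglobin genes out of the total, and its *Brca1* vKO to control ratio was then 0.995, 1.05 and 0.996. In germ cells the *Kitl* ratio between libraries reversed to 0.993 with *Ddx4* and *Dazl* at 6 or more per 10000, to 0.893 with groups from thinned cells and to 0.916 without cells over a somatic minimum, a choice added after seeing the data. The ratio between groups reversed to 0.620 without Scrublet-marked cells and to 0.443 without cells over a somatic minimum. With at most 5% mitochondrial UMIs both went the other way, to 2.33 between libraries and 2.25 between groups. The cause was not tested.

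The share of *Gfra1*-positive cells with a *Kit* UMI was 32.4% in control and 54.9% in *Brca1* vKO with no thinning, and in control 8.09% with at least 5 *Gfra1* UMIs and 7.45% without a *Stra8* UMI. With a pseudocount of 1 CPM, 303 genes were higher and 396 lower in *Brca1* vKO, and 501 higher and 646 lower in *Stra8*-high cells, because low genes then pass the fold. Under the stricter grouping 37 genes were lower in *Brca1* vKO, and 237 were higher and 368 lower in *Stra8*-high cells. The *Brca1* vKO values of *Lhx8* and *Dmrtb1* rest on few UMIs, 5 and 17 over all germ cells, which widens their intervals.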

Other observations

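Barcodes that met the germ marker minimum below 10000 UMIs (372 in control, 52 in *Brca1* vKO, median 3198 and 3314 UMIs) entered no comparison. In them *Kit* was at 27.4 CPM (19.6 to 37.3) in control and 19.5 CPM (5.30 to 49.8) in *Brca1* vKO. *Sohlh1* was at 305 CPM (277 to 334) and 77.8 CPM (44.5 to 126). *Sohlh2* was at 38.4 CPM (29.0 to 49.8) and 24.3 CPM (7.90 to 56.8). *Uchl1* was at 1325 CPM (1267 to 1386) and 438 CPM (352 to 538). *Cited1* was at 130 CPM (112 to 150) and 73.0 CPM (40.8 to 120). *Lhx8* had 11 UMIs in control and none in *Brca1* vKO, where the upper limit is 17.9 CPM. *Kitl* was at 47.3 and 48.6 CPM, *Dmrt1* at 209 and 170 CPM and *Dmrtb1* at 20.5 and 4.86 CPM. The intervals of *Sohlh1* and *Uchl1* did not overlap between the libraries, while those of *Kit* and *Sohlh2* did. For *Sohlh2* the lower value was that of *Brca1* vKO, from 5 UMIs, where in *Gfra1*/*Ret*-high cells it was the higher. These barcodes were not split into germ groups, so the 2 comparisons are not alike. At full depth *Gfra1*/*Ret*-high cells made up 48.7% of control and 87.3% of *Brca1* vKO germ cells.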
